A study of Mus musculus with 8 samples.

Results

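The genes described here encode the cannabinoid receptor CB1, a protein that binds it, and 6 enzymes that make or break down its lipid ligands: Cnr1, Cnrip1, Dagla, Daglb, Mgll, Faah, Napepld and Abhd6. They were picked by gene symbol for their role in endocannabinoid signalling, and all 8 were found among the 32531 gene symbols of the count tables. Ribosome-bound RNA was compared between the nucleus accumbens (4 libraries) and the dorsal striatum (4 libraries) of Drd1-EGFP/Rpl10a (CP73) mice aged beyond 20 months and given no treatment. Every animal carried the same transgene, in which the Drd1 promoter (dopamine D1 receptor) drives ribosomal protein L10a joined to a green fluorescent protein, so that tagged polysomes of D1 receptor-expressing cells could be pulled down with an antibody. Whether a library came from 1 animal or from pooled animals is not stated, and p-values therefore measure the spread between these libraries. No younger mice and no unpurified input were analysed here, so neither an effect of age nor enrichment over whole tissue was measured.

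CB1 is a receptor coupled to inhibitory G proteins that sits largely on axon terminals, where it lowers transmitter release. Its main brain ligand, 2-arachidonoylglycerol (2-AG), is made on demand from diacylglycerol in the postsynaptic cell by diacylglycerol lipases, travels backwards across the synapse, and is hydrolysed by monoacylglycerol lipase, largely in the terminal, and by ABHD6, largely on the postsynaptic side. The other ligand, anandamide, can be released by the phospholipase NAPE-PLD and is hydrolysed by FAAH. Striatal projection neurons both make 2-AG in their dendrites and carry CB1 on their axons. CB1 on axons arriving from cortex belongs to cells that the tag is not meant to mark.

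The accumbens libraries held 10831937 to 12639641 gene counts and the dorsal libraries 7466970 to 10363145. The share of reads assigned to no gene was higher in every accumbens library (35.5% to 40.7%) than in any dorsal one (27.1% to 33.8%), and its part in the results was not tested. Two-sided tests with edgeR's quasi-likelihood method over 12467 genes called 464 of them, or 3.72%, at a Benjamini-Hochberg adjusted p under 0.05, with 1.60% higher in accumbens and 2.12% lower. Accumbens 2 and dorsal striatum 3 stood farthest apart on the first principal component, and the log2 fold changes of Cnr1, Dagla, Mgll, Abhd6 and Faah are also given without both. Drd1, the gene whose promoter drives the tag, ranged from 363 to 555 CPM (the usual depth-normalized count unit, on scaled library sizes) in accumbens and from 533 to 670 CPM in dorsal striatum (log2 fold change -0.47 ± 0.14 SE, edgeR adjusted p = 0.0750), and Rpl10a from 171 to 228 CPM and from 145 to 227 CPM (edgeR adjusted p = 0.868). Fewer cells of a type and less RNA per cell cannot be told apart in such bulk samples.

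Of the 8 genes, Cnr1 was the only 1 called, against the 3.72% of all tested genes (2.12% called lower), and it was also the only 1 whose regions did not overlap, which held for 9.69% of tested genes (4.51% higher and 5.18% lower in accumbens). The log2 fold changes, accumbens over dorsal striatum, were positive for 4 members and negative for 4, with a median of 0.08 beside 0.02 over all tested genes. Receptor transcript was thus lower in the accumbens pulldowns, which also held transcripts of genes that mark other cells (given with the markers). The differences of the binding protein and of each enzyme missed the threshold at this spread.

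**Figure D1:**
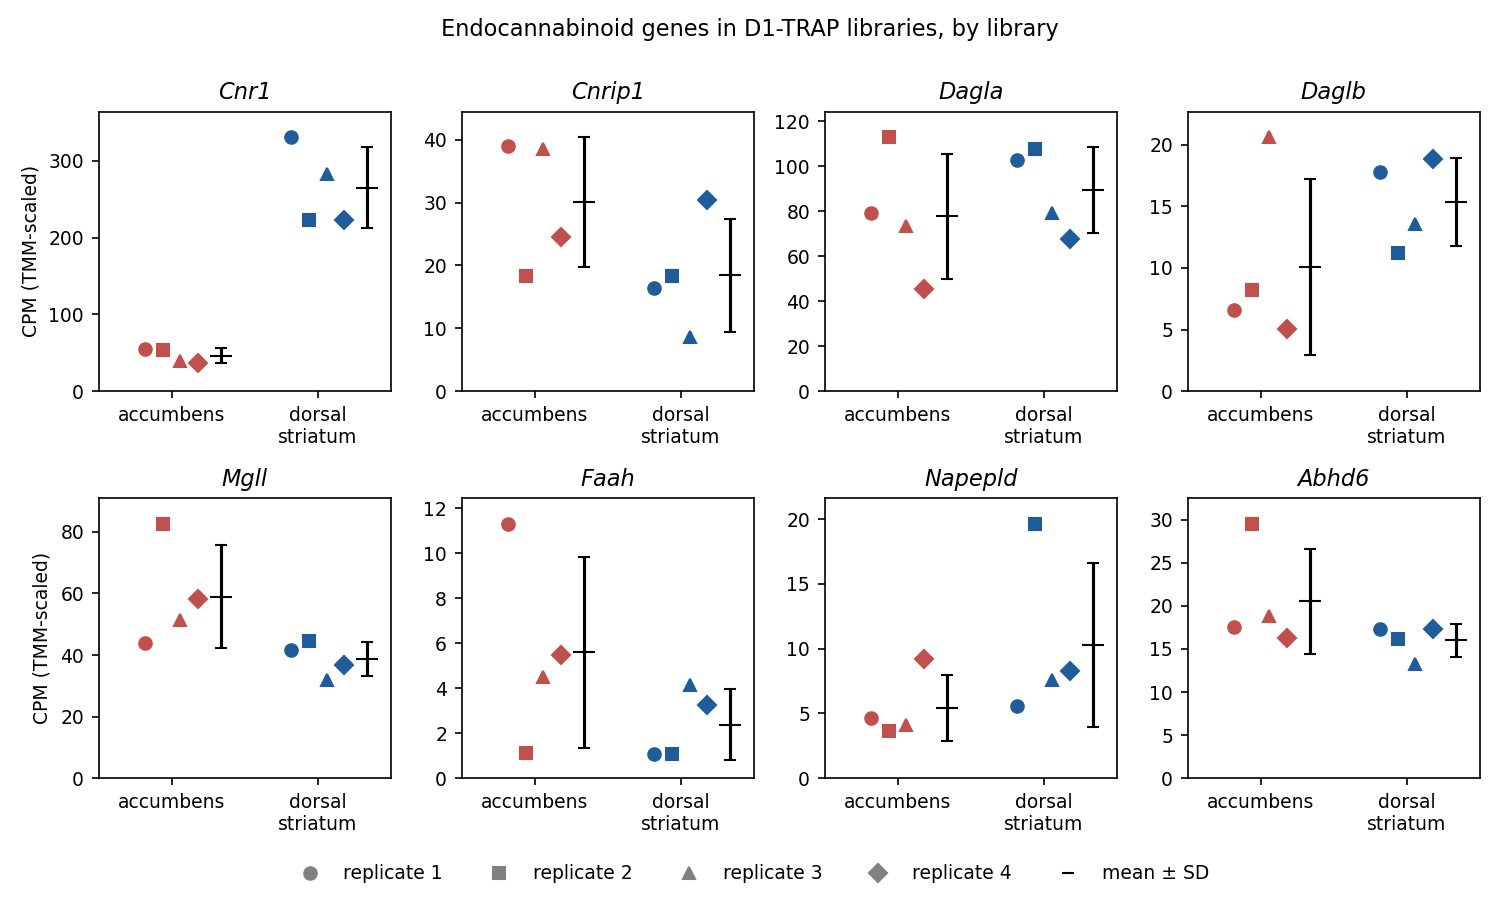
CPM in each library (vertical axes, linear from 0 and different for each gene) for accumbens (red, left) and dorsal striatum (blue, right); marker shapes give the replicate number and black bars the mean ± SD. Cnr1 separates the regions, at 36.5 to 55.1 CPM in accumbens and 223 to 331 CPM in dorsal striatum, while the other 7 genes overlap.

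Cnr1 (ENSMUSG00000044288.6, chromosome 4, 33924593 to 33948831, plus strand, GRCm38) encodes CB1. It stood at 55.1, 53.7, 38.8 and 36.5 CPM in accumbens libraries 1 to 4, and at 331, 223, 283 and 223 CPM in dorsal libraries 1 to 4. Every accumbens library lay far below every dorsal one. These values rested on 441 to 629 counts per accumbens library and 2047 to 2798 per dorsal library, so that counting error was small beside the differences between libraries. The level was 5.76-fold lower in accumbens (95% interval 4.38 to 7.57; log2 fold change -2.53 ± 0.19 SE, edgeR adjusted p = 8.87e-07). Among the 12467 tested genes this was the 2nd smallest p and the 31st most negative fold change. Leaving out any single library kept the log2 fold change between -2.62 and -2.40, and without accumbens 2 and dorsal striatum 3 it was -2.58 (edgeR adjusted p = 2.11e-05). Cnr1 had the tightest relative spread of the 8 genes in accumbens, with a coefficient of variation of 21.1% there and 19.8% in dorsal striatum.

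RefSeq lists 3 separate start sites for Cnr1 on GRCm38.p6, and counts summed over the gene do not tell transcripts of these starts apart. The 250 bases before the first start (chr4:33924014-33924263, plus strand) are shown because Cnr1 is the gene whose level parted the regions; capitals mark each GGGCGG, the GC box, on either strand.
Cnr1: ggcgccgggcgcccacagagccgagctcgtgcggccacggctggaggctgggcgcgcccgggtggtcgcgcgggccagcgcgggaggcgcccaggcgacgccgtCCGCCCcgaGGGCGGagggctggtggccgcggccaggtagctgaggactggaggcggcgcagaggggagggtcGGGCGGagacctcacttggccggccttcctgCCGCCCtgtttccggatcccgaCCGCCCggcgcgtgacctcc
This stretch is 79.2% G and C, higher than 98.4% of the 32851 RefSeq windows of the same length, and holds 5 GC boxes, a motif found in 32.7% of those windows. TATAAA (12.4% of windows), CCAAT (33.8%), TGACGTCA (1.55%) and CACGTG (6.02%), all searched on both strands, do not occur in it. The stretch before the second start is 68.8% G and C with 1 CACGTG and no GC box, and that before the third start is 49.2% G and C with none of the 5 motifs. Windows were found for 7 of the 8 members.

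Cnrip1 (chromosome 11, 17051586 to 17079371) encodes the CB1-interacting protein CRIP1, which binds the tail of the receptor inside the cell. Its levels were 38.9, 18.3, 38.6 and 24.6 CPM in accumbens libraries 1 to 4, against 16.3, 18.4, 8.58 and 30.4 CPM in dorsal libraries 1 to 4. Dorsal striatum 4 lay above accumbens 2 and 4, so the regions overlapped. Its log2 fold change was 0.70 ± 0.35 SE (95% interval -0.03 to 1.44, edgeR adjusted p = 0.367). It ran from 0.47 without dorsal striatum 3 to 1.06 without dorsal striatum 4. Exons of Cnrip1 overlap those of Plek, on the opposite strand, by 199 bases. Of the 5 ratios computed within libraries, that of Cnr1 to Cnrip1 counts differed most between the regions. Its log2 averaged 0.66 ± 0.65 in accumbens and 3.96 ± 0.93 in dorsal striatum (SD, n = 4 each). Expressed as plain ratios, the libraries ran from 1.01 to 2.94 in accumbens and from 7.33 to 32.8 in dorsal striatum, without overlap. The two-sided exact permutation p was 0.0286, the smallest that 4 against 4 libraries allow, and 0.0714 after Benjamini-Hochberg adjustment over the 5 ratios. A ratio at this smallest p passes after adjustment only if more of the 5 ratios reach it than did here. Ratios within a library do not depend on the scaling of library sizes. Cnr1 by itself parted the regions, at a log2 fold change of -2.53. Most of the difference of -3.30 in the log2 ratio of Cnr1 to Cnrip1 thus came from Cnr1. This ratio is therefore no result separate from that of Cnr1.

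The lipases that make 2-AG were led by Dagla (chromosome 19, 10245265 to 10304877), which encodes the main diacylglycerol lipase of adult brain. Dagla was measured at 79.04, 113, 73.4 and 45.5 CPM in accumbens libraries 1 to 4 and at 103, 108, 79.1 and 67.8 CPM in dorsal libraries 1 to 4. Accumbens 2 was the highest of all 8 libraries and accumbens 4 the lowest, and the dorsal values fell inside that span. The log2 fold change of -0.20 ± 0.24 SE (edgeR adjusted p = 0.782) had a 95% interval of -0.70 to 0.29, and was -0.01 without accumbens 4 and -0.44 without accumbens 2. Without accumbens 2 and dorsal striatum 3 it was -0.49 (edgeR adjusted p = 0.379).

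Daglb (chromosome 5, 143464584 to 143505942), the related lipase known for its role in macrophages and microglia, was the rarer of the pair. It stood at 6.55, 8.19, 20.6 and 5.05 CPM in accumbens libraries 1 to 4 and at 17.8, 11.2, 13.6 and 18.8 CPM in dorsal libraries 1 to 4. The accumbens values were below all dorsal ones except in accumbens 3, which was the highest of the 8. Its log2 fold change was -0.60 ± 0.42 SE (edgeR adjusted p = 0.579). With 1 library left out it ran from -1.21 without accumbens 3 to -0.38 without accumbens 4. With a covariate for glial markers, which itself leaned towards accumbens, it was -0.13 (edgeR adjusted p = 0.984). Of the merged exons of Daglb, 24.1% overlap Rac1 on the opposite strand, a gene at 858 ± 11.96 CPM in accumbens and 914 ± 122 CPM in dorsal striatum (SD, n = 4 each), so the counts of Daglb could include reads of Rac1 or miss shared ones. The log2 ratio of Dagla to Daglb counts was 3.09 ± 0.88 in accumbens and 2.54 ± 0.58 in dorsal striatum (SD, n = 4 each; exact two-sided permutation p = 0.400, adjusted p = 0.400), and the regions overlapped.

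Mgll (chromosome 6, 88724412 to 88828360) encodes monoacylglycerol lipase, which hydrolyses most 2-AG in brain. Its levels were 43.9, 82.6, 51.3 and 58.2 CPM in accumbens libraries 1 to 4 and 41.8, 44.6, 31.8 and 36.9 CPM in dorsal libraries 1 to 4. The regions nearly parted, with accumbens 1 just under dorsal striatum 2. Besides Cnr1, Mgll alone of the members had an unadjusted edgeR p under the threshold, which held for 14.8% of tested genes. This depended on the method. With limma-voom the unadjusted p was 0.0746 for Mgll, 0.0093 for Cnrip1, 0.0211 for Faah and 0.0414 for Dagla. With DESeq2 it was 0.0081 for Mgll and 0.0485 for Cnrip1. None of these passed after adjustment. The log2 fold change of Mgll was 0.61 ± 0.22 SE (95% interval 0.13 to 1.08, edgeR adjusted p = 0.178). It was 0.40 without accumbens 2, 0.73 without accumbens 1 and 0.32 without accumbens 2 and dorsal striatum 3 (edgeR adjusted p = 0.590). Mgll is also made by astrocytes and oligodendrocytes, and in a fit that also held a glial covariate (the mean level of markers of astrocytes, oligodendrocytes and microglia) its log2 fold change was 0.54 (edgeR adjusted p = 0.596).

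Set against each other within libraries, the enzyme that makes 2-AG and the one that hydrolyses it parted the regions without overlap, which neither did alone. The ratio of Dagla to Mgll counts ran from 0.781 to 1.80 in accumbens and from 1.84 to 2.48 in dorsal striatum. The log2 ratio averaged 0.37 ± 0.51 in accumbens and 1.19 ± 0.21 in dorsal striatum (SD, n = 4 each; exact two-sided permutation p = 0.0286, adjusted p = 0.0714). The gap between the nearest libraries of the 2 regions was small beside the spread within each. Accumbens 1 at 0.85 lay next to dorsal striatum 4 at 0.88 on the log2 scale. Accumbens 4, with the lowest Dagla level, was the only library in which Mgll counts exceeded those of Dagla.

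Abhd6 (chromosome 14, 8002902 to 8056763), which encodes the hydrolase that limits 2-AG near its site of synthesis, varied least between dorsal libraries. It was at 17.5, 29.5, 18.8 and 16.2 CPM in accumbens libraries 1 to 4 and at 17.3, 16.1, 13.3 and 17.3 CPM in dorsal libraries 1 to 4. Apart from accumbens 2, the accumbens values lay within or just above the dorsal ones. The log2 fold change of 0.36 ± 0.29 SE (95% interval -0.25 to 0.97, edgeR adjusted p = 0.646) was 0.13 without accumbens 2, 0.46 without accumbens 4, and 0.05 without accumbens 2 and dorsal striatum 3. Accumbens 2 was the highest library for Dagla, Mgll and Abhd6 alike. The log2 ratio of Mgll to Abhd6 was 1.52 ± 0.22 in accumbens and 1.27 ± 0.15 in dorsal striatum (SD, n = 4 each), the narrowest spread of the 5 ratios, with overlap (exact two-sided permutation p = 0.0857, adjusted p = 0.143).

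**Figure D2:**
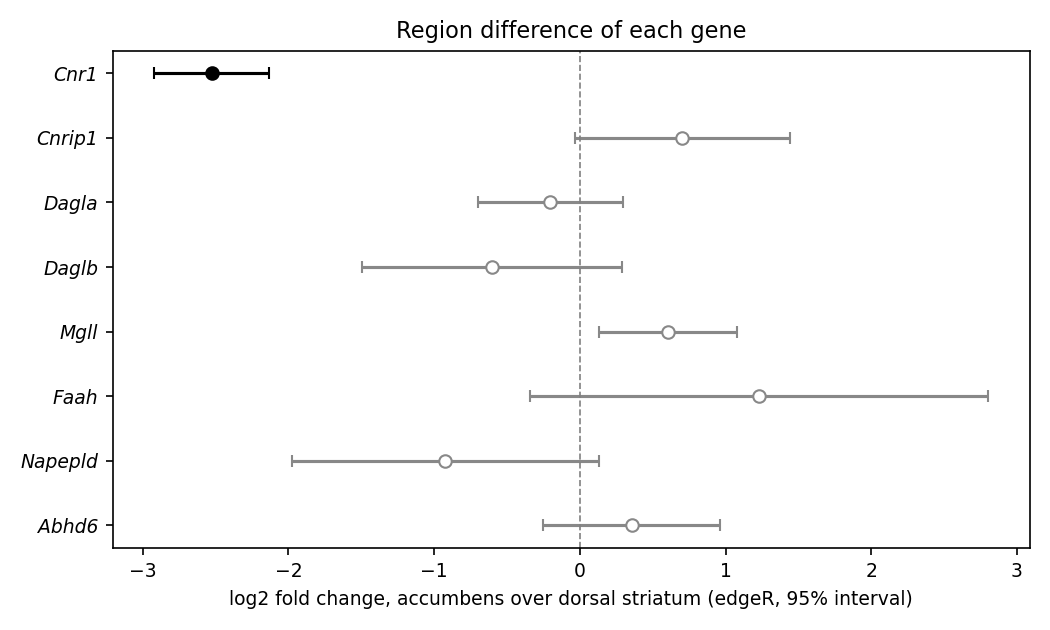
Log2 fold change, accumbens over dorsal striatum, of each gene with its 95% interval from edgeR's fit over all genes; the filled point passed an adjusted p of 0.05. Cnr1 lies at -2.53, the interval of Mgll runs from 0.13 to 1.08 without passing the adjusted threshold, and the intervals of the other 6 include 0.

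Of the enzymes of anandamide, Napepld (chromosome 5, 21662901 to 21701396), for the phospholipase that releases anandamide and related lipids, was at 4.67, 3.67, 4.11 and 9.19 CPM in accumbens libraries 1 to 4, and at 5.56, 19.6, 7.61 and 8.28 CPM in dorsal libraries 1 to 4. Accumbens 4 overlapped the dorsal libraries, and dorsal striatum 2 stood at over 2 times any other library. The log2 fold change was -0.92 ± 0.50 SE (edgeR adjusted p = 0.418), with values from -1.30 without accumbens 4 to -0.40 without dorsal striatum 2.

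Faah (chromosome 4, 115967145 to 116017926), for the hydrolase of anandamide, was the lowest of the 8 per kilobase of transcript in both regions. It stood at 11.3, 1.11, 4.51 and 5.46 CPM in accumbens libraries 1 to 4 and at 1.07, 1.06, 4.15 and 3.25 CPM in dorsal libraries 1 to 4, from 9 to 126 counts per library. In both regions the libraries differed several-fold among themselves, with a coefficient of variation of 75.8% in accumbens and 65.8% in dorsal striatum, where counting alone would give 12.4% and 22.1%. The log2 fold change of 1.23 ± 0.75 SE had a 95% interval of -0.34 to 2.80 (edgeR adjusted p = 0.487), was 0.63 without accumbens 1 and 1.63 without dorsal striatum 3, and was 1.97 without accumbens 2 and dorsal striatum 3. The 95% interval of the fold, accumbens over dorsal striatum, ran from 0.790 to 6.97 for Faah and from 0.254 to 1.09 for Napepld. A level several-fold higher in accumbens for Faah, or several-fold lower for Napepld, thus stayed within these intervals. The log2 ratio of Napepld to Faah counts was 0.26 ± 1.26 in accumbens and 2.17 ± 1.45 in dorsal striatum (SD, n = 4 each), with overlap (exact two-sided permutation p = 0.114, adjusted p = 0.143).

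**Figure D3:**
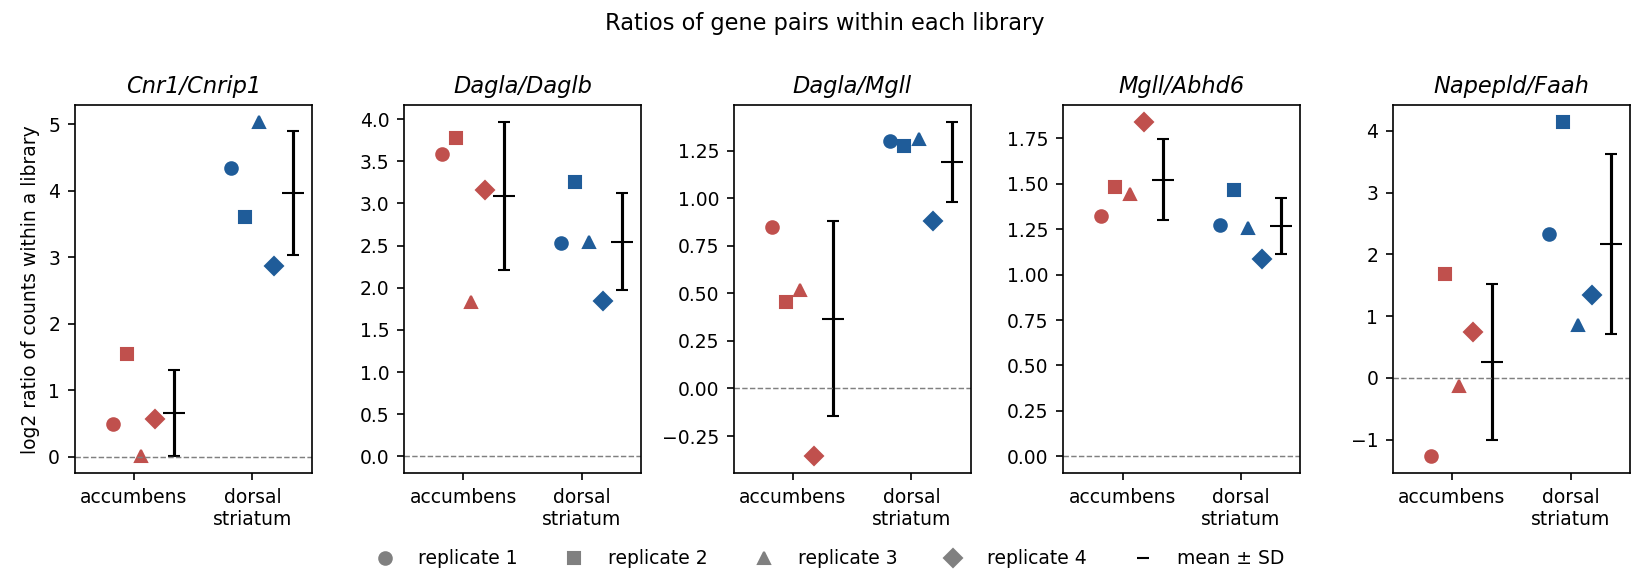
Log2 ratio of the counts of 2 genes within each library (vertical axes differ between panels; dashed line, equal counts) for accumbens (red, left) and dorsal striatum (blue, right), with mean ± SD in black. The regions do not overlap for Cnr1/Cnrip1 and Dagla/Mgll, and overlap for the other 3 ratios.

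Levels of different genes were compared as RPKM, that is CPM divided by the length of merged GENCODE M21 exons in kilobases. In accumbens, Dagla at 13.5 ± 4.83, Mgll at 11.6 ± 3.31, Abhd6 at 8.67 ± 2.58, Cnrip1 at 7.52 ± 2.58 and Cnr1 at 7.14 ± 1.51 RPKM (SD, n = 4) formed 1 overlapping set in which each neighbour in the order overlapped the next. A gap then separated Cnr1 from Napepld, Daglb and Faah, at 1.37 ± 0.646, 1.06 ± 0.746 and 0.714 ± 0.541 RPKM, which overlapped in turn. In dorsal striatum, Cnr1 led at 41.1 ± 8.13 RPKM, apart from Dagla at 15.6 ± 3.32 RPKM, which was itself apart from Mgll at 7.63 ± 1.11 RPKM (SD, n = 4). Abhd6 at 6.77 ± 0.804, Cnrip1 at 4.60 ± 2.25, Napepld at 2.60 ± 1.60 and Daglb at 1.60 ± 0.371 RPKM followed as overlapping neighbours, and Faah at 0.304 ± 0.200 RPKM was lowest and apart. Receptor transcript made up 13.9% ± 1.98 of the summed RPKM of the 8 genes in accumbens and 51.1% ± 6.93 in dorsal striatum (SD, n = 4 each). With the longest transcript in place of merged exons, Cnrip1 moved to the 2nd place in accumbens (13.97 RPKM) and the 4th in dorsal striatum (8.55 RPKM). Mgll then led in accumbens at 14.8 RPKM, with Dagla 3rd at 13.8 RPKM, and Daglb passed Napepld in both regions. Cnr1 kept its 5th place in accumbens and its 1st in dorsal striatum.

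**Figure D4:**
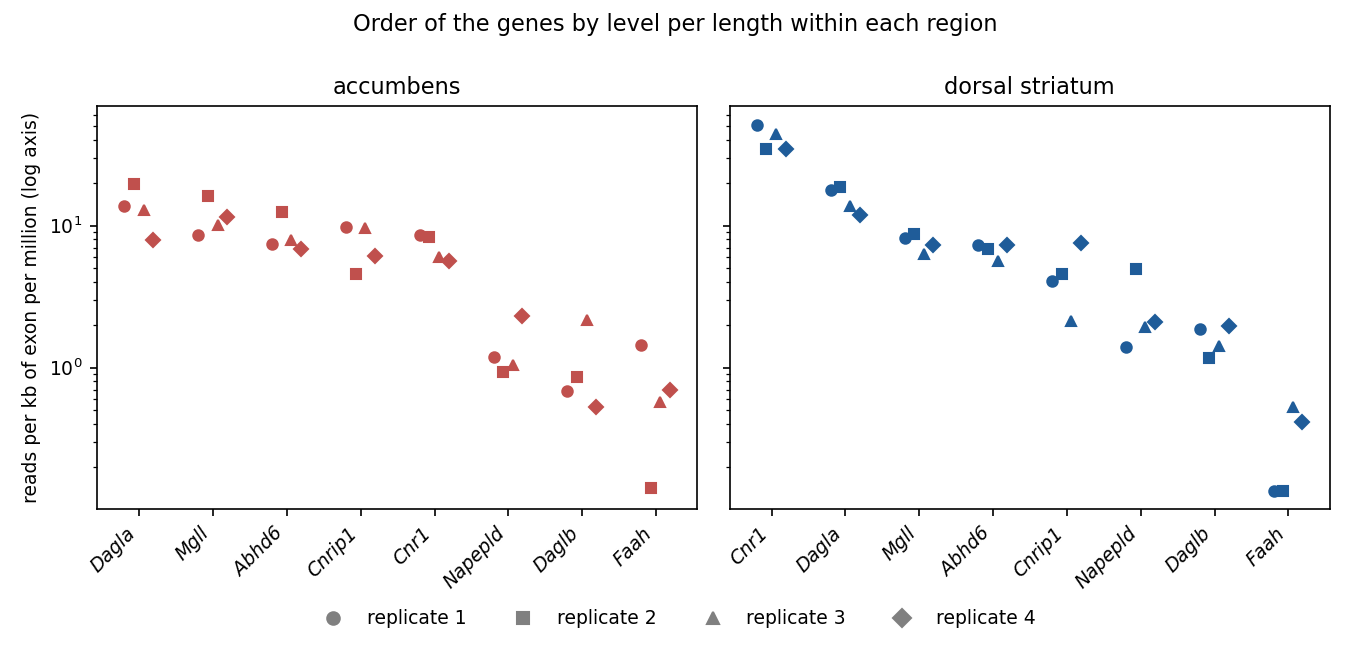
RPKM over merged exons (log axis) of the 8 genes in each library, with genes ordered by their mean within accumbens (left) and dorsal striatum (right). Cnr1 is the 5th gene in accumbens at 7.14 RPKM and the 1st in dorsal striatum at 41.1 RPKM, while Faah is last in both.

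The genes whose log2 CPM followed Cnr1 most closely over the 8 libraries, among 9487 others averaging at least 5 CPM, were Coch, which encodes an extracellular matrix protein, Slc24a2, a sodium, potassium and calcium exchanger, and Scn4b, a sodium channel subunit. Their Pearson r with Cnr1 was 0.996, 0.993 and 0.992, given as a description, since the 8 points share the split into regions. As deviations from region means the same values were 0.91 for Coch, 0.83 for Slc24a2 and 0.87 for Scn4b. The genes were picked by their r over these same 8 libraries, so the deviations are no independent evidence of shared variation. Coch averaged 3.77 ± 1.72 CPM in accumbens and 65.0 ± 11.02 CPM in dorsal striatum, and Scn4b averaged 309.8 ± 35.9 CPM and 765 ± 121 CPM. Slc24a2 averaged 411 ± 27.1 CPM in accumbens and 937 ± 50.6 CPM in dorsal striatum (SD, n = 4 each; log2 fold change -1.19 ± 0.11 SE).

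A list of 46 other genes of endocannabinoid signalling was examined in the same fit. All 46 were found in the tables, 5 of them under older symbols, and 34 passed the filter on low counts. Of those 34, 2 were called higher in accumbens and 3 lower, or 14.7% against 3.72% of all tested genes, with a median log2 fold change of 0.03 beside 0.02 over all genes. The list was chosen with earlier results of these data known, so its share is not independent evidence. The share was also not matched for level. Of the called genes, Gnao1, Plcb1, Gnai1 and Homer1 averaged at least 287 CPM in each region, with SE of 0.10 to 0.13, and Grk2 was less abundant. The called genes sat in 2 of the 7 groups of the list.

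Among 8 tested receptors, G proteins, phospholipases and scaffolds that supply diacylglycerol to the lipases, 2 were called, both lower in accumbens. Plcb1, the phospholipase C that makes diacylglycerol downstream of Gq-coupled receptors, ranged from 574 to 753 CPM in accumbens and from 918 to 1230 CPM in dorsal striatum (log2 fold change -0.73 ± 0.13 SE, edgeR adjusted p = 0.00221). Homer1, a scaffold that links glutamate receptors to the postsynaptic density and to the diacylglycerol lipase, ranged from 274 to 297 CPM in accumbens and from 405 to 514 CPM in dorsal striatum (log2 fold change -0.72 ± 0.12 SE, edgeR adjusted p = 0.00128). Neither gene overlapped between the regions, and both kept their calls under each of the 19 alternatives tried. Grm5, a metabotropic glutamate receptor whose activation leads to 2-AG synthesis, was at 383 ± 75.8 CPM in accumbens and 458 ± 36.0 CPM in dorsal striatum (SD, n = 4 each; log2 fold change -0.26 ± 0.14 SE, edgeR adjusted p = 0.416), and Gnaq, Gna11, Chrm1, Plcb4 and Homer2 were not called either.

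Among 11 tested genes for the coupling and trafficking of CB1, 2 were higher in accumbens and 1 lower. Gnao1, for the inhibitory-type G protein alpha subunit most abundant in brain, stood at 1294 ± 58.0 CPM in accumbens and 1932 ± 78.5 CPM in dorsal striatum (SD, n = 4 each; log2 fold change -0.58 ± 0.10 SE, edgeR adjusted p = 0.00157), and kept its call under all 19 alternatives. Gnai1, for another inhibitory alpha subunit, went the other way, at 538 to 608 CPM in accumbens and 383 to 419 CPM in dorsal striatum (log2 fold change 0.52 ± 0.11 SE, edgeR adjusted p = 0.00982). Both genes parted the regions without overlap. With the glial covariate Gnai1 kept a log2 fold change of 0.52, with a larger SE of 0.14, and was not called (edgeR adjusted p = 0.0725). Grk2, listed as Adrbk1, a kinase that desensitizes active receptors, averaged 71.3 ± 19.6 CPM in accumbens and 38.0 ± 7.06 CPM in dorsal striatum (SD, n = 4 each; log2 fold change 0.91 ± 0.23 SE, edgeR adjusted p = 0.0318). Its regions overlapped, and its call was lost without accumbens 1, 2 or 3, without dorsal striatum 1, 3 or 4, without accumbens 2 and dorsal striatum 3 together, with the glial covariate and with limma-voom, at adjusted p up to 0.221. Its log2 fold change was between 0.71 and 1.08 over the 19 alternatives and 0.81 with the glial covariate. Gprasp1, a sorting protein of receptors, and Sgip1, a CB1-binding regulator of endocytosis, were abundant and not called (log2 fold changes 0.28 and -0.14, edgeR adjusted p = 0.292 and 0.654).

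**Figure D5:**
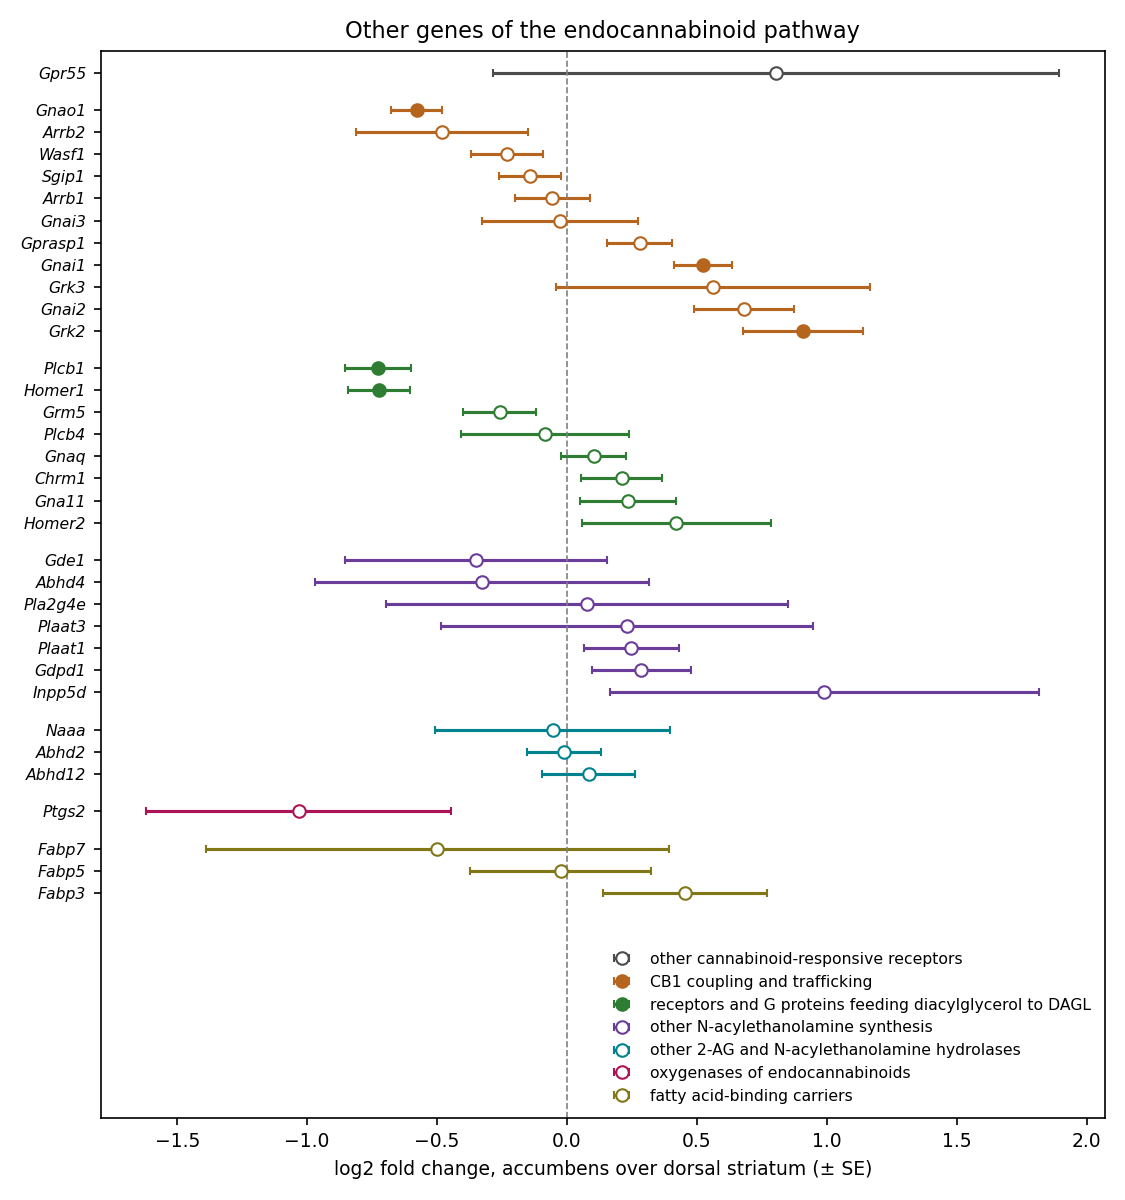
Log2 fold change, accumbens over dorsal striatum, with its SE, of 34 tested genes of endocannabinoid signalling other than the 8, coloured by group; filled points passed an adjusted p of 0.05 in edgeR's fit over all genes. Plcb1, Homer1 and Gnao1 lie below 0 and Gnai1 and Grk2 above it.

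The other 5 groups held no called gene. Of the alternative routes to N-acylethanolamines, 7 of 10 genes were tested, and edgeR called 0, with 0 at an unadjusted p under 0.05 and 0 called by DESeq2 or limma-voom; Plaat1 (listed as Hrasls) at 68.7 ± 10.7 CPM in accumbens and 57.9 ± 6.46 CPM in dorsal striatum and Gdpd1 at 56.1 ± 9.15 and 46.0 ± 1.95 CPM were the most abundant (SD, n = 4 each). The same counts of 0 held for the 3 tested hydrolases, for the 3 carriers and for the groups of receptors and oxygenases, which had 1 tested gene each. Abhd12, a further 2-AG hydrolase, averaged 84.3 ± 13.95 CPM in accumbens and 79.6 ± 13.4 CPM in dorsal striatum, and Abhd2 averaged 129.7 ± 10.8 CPM in accumbens and 130.7 ± 13.2 CPM in dorsal striatum (SD, n = 4 each). Their log2 fold changes were 0.08 ± 0.18 and -0.01 ± 0.14 SE. Fabp3 and Fabp5, carriers of fatty acids and anandamide in the cell, averaged 15.9 ± 2.93 and 15.8 ± 5.90 CPM in accumbens and 11.6 ± 2.17 and 16.1 ± 4.93 CPM in dorsal striatum. Cnr2, the gene for CB2, had no count in any of the 8 libraries, which allows up to 0.237 to 0.402 CPM per library (3 counts, on unscaled library sizes). Gpr55 averaged 2.95 ± 4.37 CPM in accumbens and 1.70 ± 1.43 CPM in dorsal striatum. Ptgs2, cyclooxygenase 2, which can oxidise both ligands, averaged 3.72 ± 2.76 CPM in accumbens and 7.62 ± 3.19 CPM in dorsal striatum (edgeR adjusted p = 0.449). In the wider family of alpha/beta hydrolase domain genes that Abhd6 belongs to, 16 of 18 others were tested and edgeR called 0, with 1 at an unadjusted p under 0.05 and 0 called by DESeq2 or limma-voom; their median log2 fold change was -0.04.

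Markers of other cells were read beside these results. All 7 indirect-pathway markers, from neurons that the D1 promoter should not tag and that also make Cnr1, leaned towards accumbens, with Drd2, Adora2a and Penk called higher, and their summed level ran from 667 to 945 CPM in accumbens and from 252 to 355 CPM in dorsal striatum. The 8 direct-pathway markers summed to 1943 to 2192 CPM in accumbens and 2282 to 2585 CPM in dorsal striatum, with Pdyn called higher in accumbens and Eya1 and Ebf1 called lower. Astrocyte markers (7 of 9 tested, Slc1a2 called higher in accumbens and Slc4a4 lower) summed to 451 to 948 CPM in accumbens and 709 to 854 CPM in dorsal striatum. Most of these sums came from those 2 genes. Slc1a2 averaged 433 CPM in accumbens and 230 CPM in dorsal striatum, and Slc4a4 averaged 253 and 508 CPM. No other astrocyte marker averaged above 18.2 CPM in either region. Oligodendrocyte markers, all 7 tested ones positive and none called, summed to 131 to 335 CPM in accumbens and 126 to 204 CPM in dorsal striatum. Microglia markers, of which 1 of 7 was tested (unadjusted p under 0.05, not called) and C1qa had no count in any library, summed to 4.80 to 15.1 CPM in accumbens and 0.20 to 3.39 CPM in dorsal striatum. Fitted with the glial covariate, Cnr1 had a log2 fold change of -2.60 (edgeR adjusted p = 9.47e-06), Dagla of -0.37, Cnrip1 of 0.92, Abhd6 of 0.40, Napepld of -1.35 and Faah of 1.47, none of these 5 called. The covariate was 0.65, 0.26, -0.17 and 0.39 in accumbens libraries 1 to 4. In dorsal libraries 1 to 4 it was -0.25, 0.44, -0.40 and -0.92. It thus leaned towards accumbens, and a fit that holds it cannot fully part glia from region. The part of indirect-pathway cells in the level of Cnr1 was not tested. The part of the marker lists other than glia in the results on Mgll, Faah and Daglb was not tested.

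Interneuron and vascular markers were not called in any list by edgeR, with 1 mural marker at an unadjusted p under 0.05; DESeq2 called 1 mural marker and limma-voom 0, and both called 0 in the other lists of this kind. GABA interneuron markers, whose cells include some rich in CB1, summed to 70.1 to 161 CPM in accumbens and 35.6 to 135 CPM in dorsal striatum. Cholinergic markers summed to 13.4 to 16.3 and 3.84 to 15.2 CPM, endothelial markers to 5.72 to 179 and 6.75 to 62.3 CPM, mural and fibroblast markers to 3.16 to 61.9 and 1.78 to 30.9 CPM, and oligodendrocyte precursor markers to 12.2 to 17.5 and 6.80 to 17.6 CPM, accumbens before dorsal striatum in each. Markers of cortical or thalamic excitatory neurons summed to 80.8, 96.6, 82.1 and 20.6 CPM in accumbens libraries 1 to 4 and to 57.3, 99.6, 9.96 and 3.94 CPM in dorsal libraries 1 to 4. Libraries with a low sum of these, accumbens 4 and dorsal striatum 3 and 4, were also those with the lowest Dagla levels within their region. The sum of GABA interneuron markers was lowest within each region in the same libraries. It was 70.1 CPM in accumbens 4, and 35.6 and 60.3 CPM in dorsal striatum 3 and 4. The part of either kind of cell in the level of Dagla was not tested.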

How the data were processed

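The authors deposited 1 table of read counts, unnormalized, per library, with a row for each gene symbol. STAR 2.0.0e, mm10 and HTSeq are named in the submitters' processing notes; the annotation, strand setting and read filters are not given in the sources used here. Reads without a unique gene (35.5% to 40.7% in accumbens and 27.1% to 33.8% in dorsal striatum, without overlap) were left out of library sizes. The main test was the quasi-likelihood F test of edgeR 4.0.16 (R 4.3.3) over all genes passing filterByExpr at a minimum count of 10, with TMM scaling and region as the only term. Log2 fold changes set accumbens over dorsal striatum, and CPM used TMM-scaled library sizes. SE is the fold change divided by the root of F. Log2 CPM used a prior count of 2, and ratios added 0.5 to each count. The scripts were tested on simulated data. No 2 libraries agreed within sampling noise; limits from 0 counts cover counting error only. Coordinates and exon lengths are from GENCODE M21 (GRCm38), and sequences from RefSeq (GRCm38.p6).

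The members and lists were chosen with earlier results of these data known, so the share of called genes in a list is not independent evidence. Named are the members, Drd1, Rpl10a, the called genes of each pathway group or else its 2 most abundant, called markers, and the 3 genes most like Cnr1. Grm5, Gnaq, Gna11, Chrm1, Plcb4, Homer2, Gprasp1, Sgip1, Cnr2 and markers at 0 were named after their values were seen. A gene of the pathway list is not reported here and is left out of its counts.

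Alternatives were RLE and upper-quartile scaling, no or a stricter filter on low counts, DESeq2 1.42.0, limma-voom (limma 3.58.1), a block for replicate number, a covariate for glial markers, thinned counts, leaving out Rn45s, Lars2 and AK140265, and leaving out libraries.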

Additional observations from a re-analysis of the deposited data

Results flagged for a closer look

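The log2 ratio of Dagla to Mgll counts in dorsal striatum 4, 0.88, lay apart from the other 3 dorsal libraries, which were within 1.27 to 1.31. Its gap to the nearest of them was 0.91 of the group's range, above Dixon's 95% critical value for 4 samples. Of 26 groups of 4 libraries checked (8 genes and 5 ratios in each region) it was the only 1 past that value, and chance flags about 1 in 20.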

How the results depend on the processing

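Cnr1 was called lower in accumbens under each of the 19 alternatives, with log2 fold changes from -2.62 to -2.40 and edgeR adjusted p up to 2.11e-05, and it was the 1 called member in each. The other 7 genes kept their sign and missed the threshold in all 19, as did the 5 ratios in theirs. With 3 libraries in a region or 4 pairs a ratio's exact test cannot pass, so those give values only. With 4 libraries per region, a ratio at the smallest exact p of 0.0286 passes after adjustment only if more of the 5 ratios reach it than did. Genes called higher and lower in accumbens, 200 and 264 over all tested genes, numbered 391 and 402 with DESeq2, 92 and 120 with the glial marker covariate, and 139 to 191 and 184 to 236 with 1 library left out; without a filter on low counts 350 were higher. Pathway genes called higher, 2 in all libraries, numbered 0 with the glial marker covariate (log2 fold changes 0.52 for Gnai1 and 0.81 for Grk2, beside 0.52 and 0.91 without it), 1 with limma-voom, 1 without accumbens 2 and dorsal striatum 3 and 1 to 2 with 1 library left out, while 3 were called lower in each. The glial marker covariate itself leaned towards accumbens, so calls lost with it cannot be laid to glia alone. Per longest transcript, levels in accumbens and dorsal striatum were 13.97 and 8.55 RPKM for Cnrip1 and 2.07 and 3.15 RPKM for Daglb, and 9.71 RPKM for Mgll in dorsal striatum; the length alone changes there. Same-numbered libraries did not deviate together (Pearson r from -0.08 to 0.01 over genes, against -0.13 to 0.11 for libraries of different number). Whether they share animals is not stated. These values cannot decide it, since other differences between libraries could hide a shared animal. With the replicate number as a block 194 genes were called higher and 238 lower, and Cnr1 had a log2 fold change of -2.53. Faah and Napepld, at 9 to 185 counts, varied between libraries by more than counting error. Thinning to the smallest library gave an SE of 0.75 for Faah and 0.51 for Napepld, beside 0.75 and 0.50 with all counts. Since thinning only lowers depth, it cannot show what more depth would give.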
